A study of Homo sapiens with 3 samples.

Results

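The cells described here are the most RNA-rich cells of the top channel of an organ-on-chip culture: droplets with at least 30000 UMIs (unique molecular identifiers, each standing for 1 captured RNA molecule) and at most 20% of UMIs from the mitochondrially encoded genes. They numbered 661 of 37327 top-channel cells that passed the cell filter and of 39278 such cells in the whole series. The stretched top library held 135 of them, 0.671% of its cells (95% Clopper-Pearson interval 0.563 to 0.794), and the not stretched top library held 526, or 3.06% (2.80 to 3.33). They carried 2.19% of the UMIs of all kept cells in the stretched library and 8.97% in the not stretched library. All kept cells had a median of 9384 UMIs with stretch and 10964 without, and the limit of 30000 UMIs was the same for both. The part of library depth in the unlike shares was not tested. The cells were chosen by their UMI total and mitochondrial share, which are given here only as a description, and below gene levels are compared as shares of UMIs, and counts of UMIs per cell after thinning every cell to the same number. Each was set against the cells of its own library with 8000 to 15000 UMIs, 8520 in the stretched and 6900 in the not stretched library, which passed the same mitochondrial limit.

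All cells were HCT116, a human colorectal carcinoma line, carrying a histone H2B-GFP label, and were grown in a chip with a top and a bottom channel. The stretched group came from the top channel of chips under peristalsis-like stretch for 6 days, and the not stretched group from the top channel without it. The remaining library, from the bottom channel of the stretched condition, holds cells that had invaded and serves here only as a point of comparison. Cells were detached with trypsin and sorted for GFP before droplet capture, a sort that leaves out unlabelled cells. Each condition was 1 library, with no replicate, so all differences are given by their size, without a test, and all intervals cover counting error only.

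The RNA content of a growing cell increases as it passes through the cell cycle, and a cell in G2 or mitosis holds the transcripts of the spindle, chromosome segregation and cytokinesis machinery. A cell that has failed to divide can return to G1 as a polyploid cell with a large RNA content. A droplet that caught more than 1 cell also has a high UMI total. DNA content was not measured, so G2, polyploid and multiplet droplets cannot be told apart from the UMI total.

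The members' UMI totals had a median of 32554 in the stretched library (range 30005 to 59528) and 34454 in the not stretched library (30006 to 62863). The 8000 to 15000 UMI cells had medians of 10700 and 11077, a ratio of 3.04 in the stretched and 3.11 in the not stretched library. Only 6 stretched members reached 45000 UMIs, against 47 not stretched members. Around the threshold the totals ran on without a break: 29 stretched and 70 not stretched cells had between 30000 and 31000 UMIs, and 45 and 110 had between 29000 and 30000. No cell at or above 30000 UMIs was left out by the mitochondrial limit, and 328 stretched and 452 not stretched cells of 8000 to 15000 UMIs were. At 8000 UMIs per cell, stretched members had a median of 2977 detected genes and the 8000 to 15000 UMI cells 2749. The same medians were 3066 and 2893 in the not stretched library.

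Barcodes numbered 25169 with stretch, 26106 without stretch and 3513 for the bottom channel, with 225094841 and 235348538 UMIs in the top libraries. The members held epithelial markers, and whether they were colon cells was not tested. All 10 epithelial markers reached 10 UMIs per 1000000 (CPM) in both cell groups of both top libraries, and their summed level was 4215 CPM in stretched members against 4874 CPM in the 8000 to 15000 UMI cells, and 4805 against 4929 CPM without stretch. EPCAM, the epithelial adhesion molecule, was at 383 CPM in stretched members against 395 CPM, and at 386 against 391 CPM without stretch. None of the 10 endothelial, 10 fibroblast and 10 leukocyte markers reached 10 CPM. A hepato-intestinal list, which holds genes of the apolipoprotein program described below, had 7 of 10 markers at that level in stretched members and 8 of 10 in not stretched members, with summed levels of 667 against 268 CPM with stretch and 727 against 238 CPM without. The summed levels of the endothelial, fibroblast and leukocyte markers in members ran between 2.81 and 14.2 CPM, and among stretched members 7 endothelial, 5 fibroblast and 3 leukocyte markers were at 0, against 2, 4 and 2 among not stretched members. The top libraries shared 216 barcodes, among them 3 stretched and 4 not stretched members, and the top members shared none with the bottom library.

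Most RNA-rich cells were called G2/M. With every cell thinned to 8000 UMIs, 85 of 135 stretched members were called G2/M, 63.0% (54.2 to 71.1), against 29.9% (28.9 to 30.9) of the 8000 to 15000 UMI cells. Without stretch, 298 of 526 members were called G2/M, 56.7% (52.3 to 60.9), against 22.6% (21.6 to 23.6). The G1 share moved the other way: 14 stretched members, 10.4%, were called G1 against 42.5% of the comparison cells, and 88 not stretched members, 16.7%, against 53.2%. S-phase shares were close, 26.7% against 27.6% with stretch and 26.6% against 24.2% without. Without thinning the members' G2/M shares were 63.7% and 56.3%, and at 3000 UMIs per cell 65.2% and 57.8%. Free RNA enters such calls, and its part was not tested.

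Counted directly, UMIs of the 54 G2/M genes averaged 51.5 per 8000 UMIs in stretched members (SD 22.7, n = 135 cells) and 34.2 in the 8000 to 15000 UMI cells (SD 29.6, n = 8520 cells). Without stretch the means were 49.3 (SD 27.4, n = 526 cells) and 30.2 (SD 29.4, n = 6900 cells). What separated the groups was the low end. Cells with at most 15 such UMIs, the low mode of the comparison cells, made up 2.96% of stretched members against 39.0%, and 11.2% of not stretched members against 47.5%. At the high end the shares were near each other: at least 100 such UMIs were found in 3.70% of stretched members against 4.18%, and in 5.32% of not stretched members against 3.59%. The highest members had 111 and 142 such UMIs and the highest comparison cells 220 and 202. The comparison groups were far larger, so these maxima do not compare the high ends. These limits were set after the distributions had been seen.

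**Figure D1:**
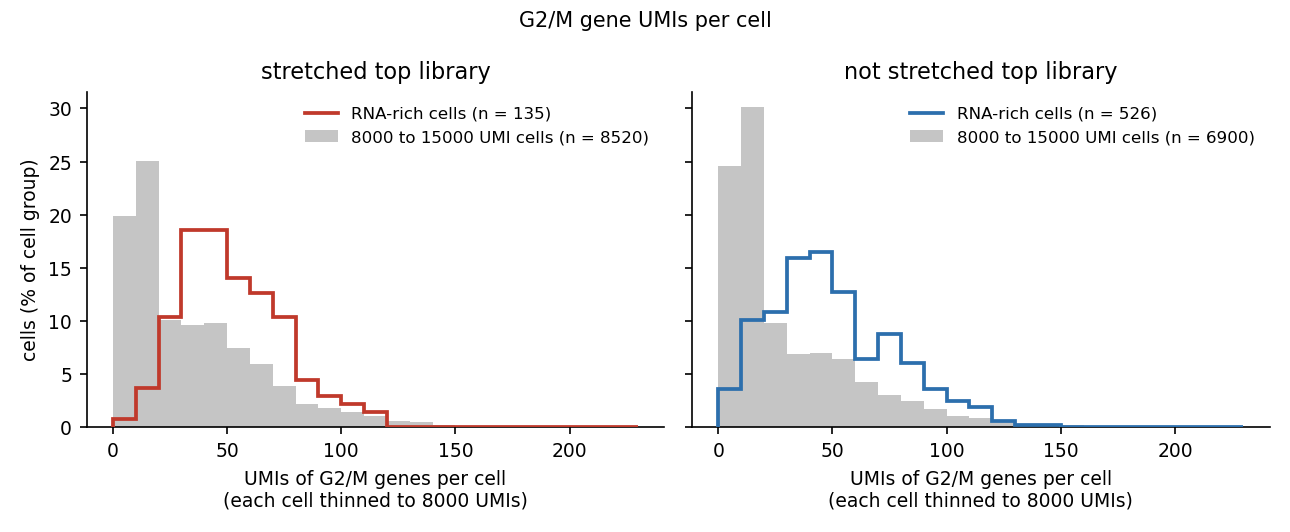
Share of cells (%) by the number of G2/M gene UMIs per cell after thinning to 8000 UMIs, in steps of 10 UMIs, for RNA-rich cells (outline) and 8000 to 15000 UMI cells (grey) of each top library. The grey mode at low counts is nearly empty among stretched members, with medians of 48 against 24 in the stretched and 45 against 17 in the not stretched library.

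S-phase gene UMIs showed the same narrowing. They averaged 22.3 in stretched members (SD 7.64) against 18.0 (SD 13.2), and 22.6 in not stretched members (SD 10.8) against 16.9 (SD 14.3). Cells with at most 15 were 20% of stretched members against 49.4%, and 28.9% of not stretched members against 58.1%. No member had 60 or more, 0 of 135, which allows up to 2.22% (3 cells of the total, as for every count of 0 below), and 0 of 526, which allows up to 0.570%, against 16 comparison cells (0.188%) with stretch and 40 (0.580%) without. Both phase scores were above 0 in 58.5% of stretched members against 29.8%, and in 44.9% of not stretched members against 22.4%.

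The rise in G2/M calls with the UMI total was gradual, not a step at 30000. With stretch, 29.9% of cells with 8000 to 15000 UMIs, 47.3% with 15000 to 30000, 62.0% with 30000 to 45000 and 83.3% at or above 45000 were called G2/M, the last from 6 cells. Without stretch the shares were 22.6%, 38.5%, 55.3% and 70.2%. In the bottom library, whose kept cells had a median of 40387 UMIs, the shares were 38.1%, 36.9%, 37.4% and 52.5%. The median mitochondrial share went down over the same steps, through 10.2%, 8.81%, 7.47% and 7.17% with stretch and 10.1%, 8.44%, 7.26% and 6.35% without.

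**Figure D2:**
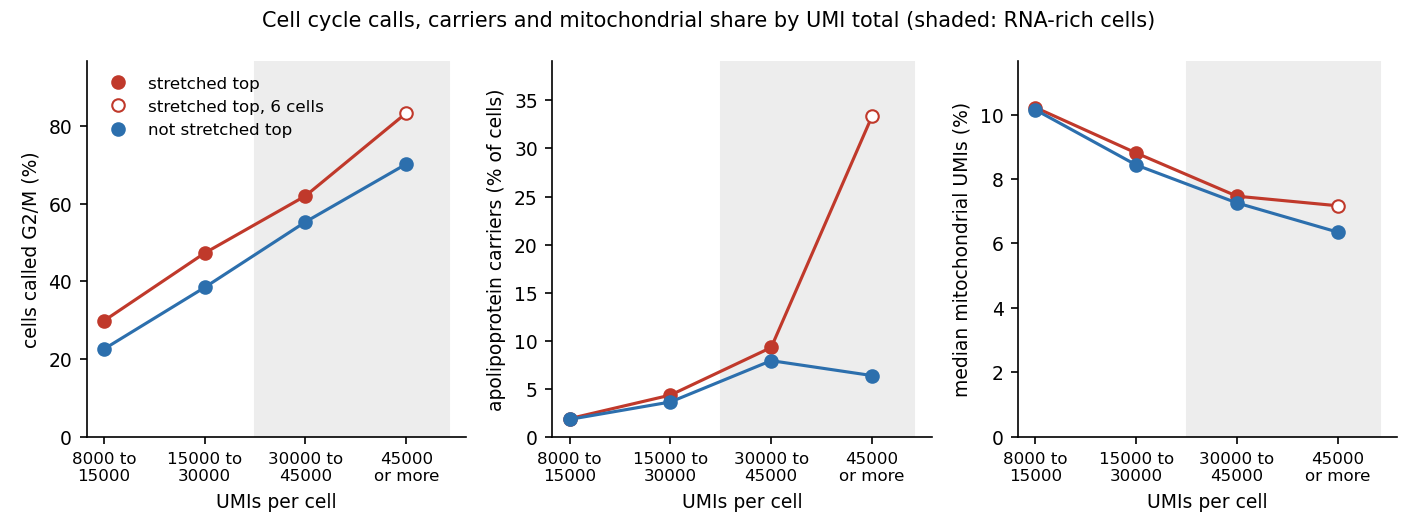
Share of cells called G2/M (left, %), share of cells with at least 5 apolipoprotein UMIs (centre, %) and median mitochondrial share of UMIs (right, %) by UMI total in the 2 top libraries, with the RNA-rich range shaded. G2/M calls are higher and the mitochondrial share lower in each step up to 45000 UMIs, and the open marker rests on 6 cells.

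Gene by gene, RNA-rich cells were compared with the 8000 to 15000 UMI cells as the log2 ratio of pooled CPM, 1 CPM being added to each, over all genes that reached 10 CPM on either side. A gene counts as higher or lower past 1.5-fold, a log2 ratio of 0.585. In the stretched library 177 of 8888 genes were higher (1.99%) and 62 lower (0.698%). In the not stretched library 205 of 9296 were higher (2.21%) and 76 lower (0.818%). With TMM scaling the split was 108 higher (1.21%) and 123 lower (1.38%) with stretch, and 175 (1.88%) and 103 (1.11%) without. The median ratio of all genes was 0.08 with stretch and 0.04 without. In both libraries 107 of the 8824 genes tested in both were higher and 19 were lower. Of the 107 genes, 36 were members of the cell cycle lists, 29 of them G2/M genes, and another 19 belonged to the apolipoprotein program described below.

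**Figure D3:**
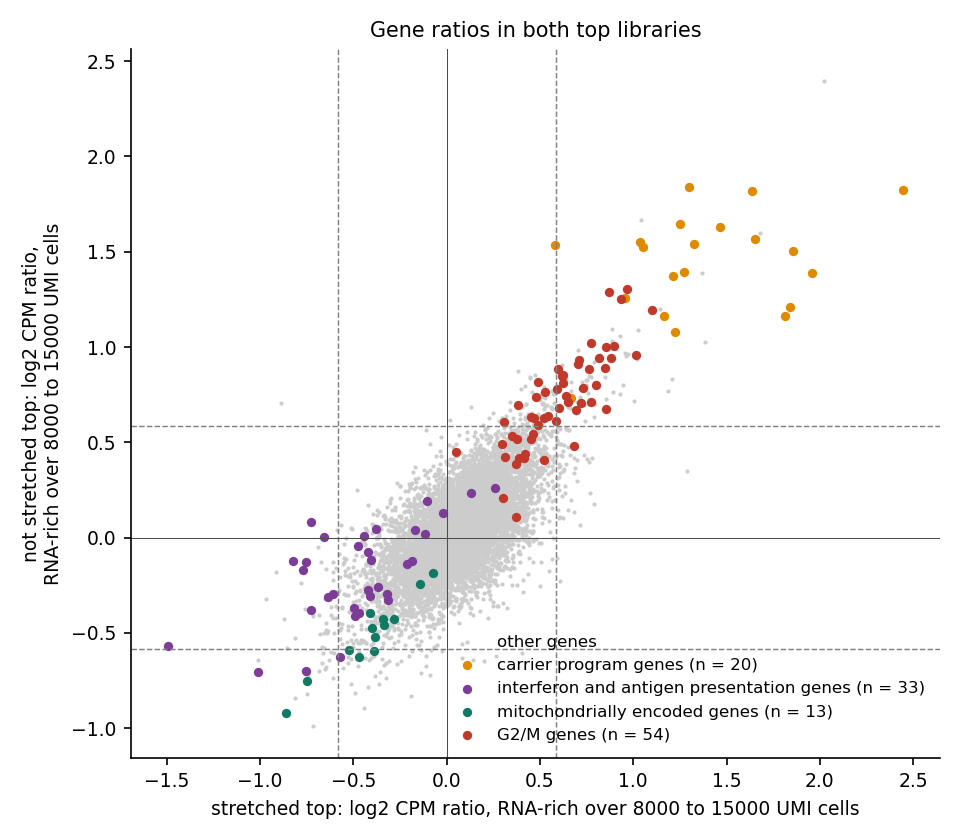
Log2 CPM ratio of RNA-rich over 8000 to 15000 UMI cells for each gene, stretched top library on the x axis and not stretched top library on the y axis, with dashed lines at 1.5-fold. G2/M genes (red) and apolipoprotein program genes (orange) fill the upper right, and mitochondrially encoded (green) and interferon and antigen presentation genes (purple) lie mostly to the lower left.

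Of the 54 G2/M genes, 30 were higher and none lower with stretch, with a median log2 ratio of 0.60, and 39 were higher and none lower without stretch, median 0.71. AURKA (ENSG00000087586, chromosome 20, 56369389 to 56392337 on hg38), the kinase that matures centrosomes and builds the spindle, was at 63.6 CPM in stretched members against 29.1 CPM, 2.18-fold (1.93 to 2.46). Without stretch it was at 52.4 against 22.3 CPM, 2.35-fold (2.17 to 2.54). UBE2C (chromosome 20, 45812576 to 45816957), the ubiquitin-conjugating enzyme of the anaphase-promoting complex, was at 469 against 239 CPM with stretch (1.96-fold, 1.87 to 2.05) and at 344 against 139 CPM without (2.48-fold, 2.40 to 2.55). MKI67 (chromosome 10, 128096659 to 128126385), the Ki-67 protein that coats mitotic chromosomes, was at 181 against 102 CPM with stretch (1.77-fold, 1.64 to 1.90) and at 203 against 105 CPM without (1.93-fold, 1.86 to 2.00). All of these values were higher in members in both libraries. GTSE1, a microtubule-binding protein of G2 and S phase, was at 59.9 against 30.9 CPM with stretch and at 64.5 against 26.5 CPM without. CENPA, the histone H3 variant of centromeres, was at 44.5 against 23.5 CPM and at 43.3 against 21.1 CPM. CDK1, the kinase that starts mitosis, was at 182 against 98.99 CPM and at 161 against 65.2 CPM. CDCA2, which brings a phosphatase to mitotic chromatin, was at 56.9 against 27.7 CPM and at 47.1 against 23.8 CPM.

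Many genes of this list are transcribed late in the cycle through the CHR element (TTTGAA or TTTAAA), read by the MuvB complex with B-MYB or FOXM1, and through CCAAT boxes bound by NF-Y. The promoters of GTSE1, CENPA and CDK1 are shown as examples of G2/M genes that were higher in both libraries and had an entry. They are the 250 bases before the gene start from RefSeq (GRCh38.p14), at chr22:46296620-46296869, chr2:26785806-26786055 and chr10:60778081-60778330, all on the + strand, with CHR and CCAAT letters of either strand in capitals.
GTSE1: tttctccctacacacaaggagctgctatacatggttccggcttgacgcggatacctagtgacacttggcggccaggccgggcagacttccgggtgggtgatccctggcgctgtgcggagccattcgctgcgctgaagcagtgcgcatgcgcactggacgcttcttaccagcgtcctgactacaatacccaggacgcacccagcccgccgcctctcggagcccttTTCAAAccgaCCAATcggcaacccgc
CENPA: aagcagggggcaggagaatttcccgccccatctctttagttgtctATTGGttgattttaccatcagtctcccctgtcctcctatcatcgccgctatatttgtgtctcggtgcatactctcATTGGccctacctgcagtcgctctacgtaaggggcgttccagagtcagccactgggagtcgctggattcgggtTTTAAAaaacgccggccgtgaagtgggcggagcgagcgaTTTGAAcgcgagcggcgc
CDK1: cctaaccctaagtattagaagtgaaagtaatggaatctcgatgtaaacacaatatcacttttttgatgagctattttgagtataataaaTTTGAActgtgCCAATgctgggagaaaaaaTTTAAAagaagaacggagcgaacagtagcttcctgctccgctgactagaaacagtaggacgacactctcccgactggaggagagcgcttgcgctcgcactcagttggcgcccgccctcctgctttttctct
A CHR sequence stood on either strand in 31 of the 46 G2/M promoters with an entry (67.4%) and in 6044 of 27305 promoters of the same length (22.1%). CCAAT stood in 32 (69.6%) against 9021 (33.0%), and both in 25 (54.3%) against 2144 (7.85%). A CHR sequence and CCAAT can share at most 1 letter, and a match only describes the window.

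Other lists of cell division, which share some genes with the G2/M list, KIF23 and HMGB2 among them, lay on the same side. Among 18 cytokinesis genes, 6 were higher and none lower with stretch (median 0.41) and 9 and none without (median 0.57). KIF23, the kinesin of the central spindle, was at 72.2 against 39.7 CPM with stretch and at 70.1 against 37.4 CPM without. PRC1, which bundles midzone microtubules, was at 46.3 against 27.2 CPM and at 42.4 against 24.1 CPM, but 84.8% of its last 1000 exonic bases lie in another annotated gene (AC068831.7), so its own level is uncertain. Chromosome condensation and chromatin genes had medians of 0.43 with stretch (3 of 24 higher) and 0.40 without (4 of 24). HMGB2, an abundant chromatin protein, was at 578 against 396 CPM with stretch and at 562 against 361 CPM without. Centrosome genes had medians of 0.33 (2 of 18 higher) and 0.27 (2 of 19), and nuclear envelope and pore genes 0.28 and 0.22, with 1 of 23 higher in each. LMNB1, a lamin of the nuclear envelope, was at 63.6 against 41.4 CPM with stretch and at 64.1 against 42.8 CPM without.

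S-phase genes were higher by less. Their median was 0.19 with stretch (3 of 41 higher, none lower) and 0.38 without (5 of 41, none lower). RAD51AP1, a DNA repair protein, was at 40.4 against 25.2 CPM with stretch and at 39.9 against 24.5 CPM without. USP1, which removes ubiquitin from FANCD2 and PCNA, was at 58.8 against 37.2 CPM with stretch and at 52.4 against 35.1 CPM without, where its log2 ratio of 0.57 was just under 1.5-fold. E2F8, an atypical E2F repressor of the late S phase, was at 15.1 against 9.52 CPM and at 17.6 against 9.40 CPM. Of the 37 replication-dependent histone genes only 6 reached the minimum level. HIST1H4C (chromosome 6, 26103876 to 26104310), an H4 gene, was at 656 CPM in stretched members against 253 CPM (2.59-fold, 2.49 to 2.69) and at 398 against 152 CPM without stretch (2.63-fold, 2.55 to 2.70). It was detected in 134 of 135 and 507 of 526 members. The H4 genes are near copies of each other, so which copy the reads came from is uncertain. G1 cyclin and CDK control genes had none of 18 past 1.5-fold, with medians of 0.16 and 0.22. CCND1, cyclin D1, was at 311 against 231 CPM with stretch and at 307 against 217 CPM without. CDKN1A, the p21 inhibitor that p53 induces and that accumulates in arrested tetraploid cells, was at 89.9 against 72.0 CPM and at 75.5 against 57.9 CPM, log2 ratios of 0.32 and 0.38. As a list, 24 p53 targets had medians of -0.11 and -0.07, with 1 and 3 lower and none higher.

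Genes of ribosome assembly were higher by a small margin as a list. The 34 ribosome biogenesis and nucleolar genes had medians of 0.31 with stretch (1 higher, none lower) and 0.35 without (6 higher, none lower). LYAR, a nucleolar protein of ribosomal RNA processing, was at 150 against 87.8 CPM with stretch and at 133 against 73.5 CPM without. NOP14, of the small-subunit processome, was at 54.9 against 37.0 CPM and at 59.5 against 36.6 CPM, and TCOF1, which promotes ribosomal DNA transcription, was at 61.2 against 45.2 CPM and at 62.1 against 40.5 CPM. At 8000 UMIs per cell the list had a median of 46 UMIs in stretched members against 37, and 48 against 34 without stretch. The proteins of the ribosome itself did not share this: 33 cytosolic ribosomal protein genes had medians of -0.05 and -0.06 with none past 1.5-fold. Heat shock chaperones had medians of 0.24 and 0.30, and proteasome subunits 0.10 and 0.33, with none past 1.5-fold in either list. PSMA7, an alpha subunit of the 20S core, was at 956 against 679 CPM with stretch and at 887 against 617 CPM without.

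Mitochondrially encoded RNA was lower as a share in members. Its 13 genes had a median log2 ratio of -0.39 with stretch (2 lower, none higher) and -0.48 without (5 lower, none higher). Their summed level was 77842 CPM in stretched members against 103223 CPM, and the median share per cell was 7.47% against 10.2% with stretch and 7.17% against 10.1% without. MT-CYB (mitochondrial genome, 14747 to 15887), the cytochrome b subunit of complex III, was at 6243 against 10504 CPM with stretch and at 6511 against 10978 CPM without. MT-ATP8, of the ATP synthase, was at 119 against 217 CPM and at 102 against 193 CPM, and 22.2% of its bases also belong to MT-ATP6. Nuclear-encoded genes of the mitochondrion were not lower. The 33 nuclear-encoded oxidative phosphorylation genes had medians of 0.11 and 0.15, and 24 mitochondrial ribosomal protein genes 0.22 and 0.36, none past 1.5-fold in either list. MRPL11, of the large mitochondrial ribosomal subunit, was at 229 against 176 CPM with stretch and at 224 against 171 CPM without. The rule held cells of both groups to at most 20% mitochondrial UMIs, and with a limit of 10% the medians of the mitochondrially encoded genes were -0.14 and -0.19.

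Interferon, antigen presentation, hypoxia and immediate early genes were the next lists described by their lower members, and most genes lower past 1.5-fold lay in none of these lists. Of the interferon-stimulated genes, 8 of 21 were lower with stretch (median -0.47) and 2 of 23 without (median -0.12), and none was higher. BST2 (chromosome 19, 17402939 to 17405648), the virus-tethering membrane protein, was at 35.7 against 72.8 CPM with stretch and at 122 against 199 CPM without. IFITM1, an antiviral membrane protein, was at 5.19 against 16.5 CPM and at 19.0 against 28.6 CPM, but it shares 35.1% of its last 1000 exonic bases with IFITM2. Per cell at 8000 UMIs, interferon-stimulated UMIs averaged 34.7 in stretched members (SD 18.2) against 48.3 (SD 31.3). Without stretch the means were 58.5 (SD 30.2) and 64.7 (SD 36.2). The upper end of the distribution differed in both libraries, and without stretch the lower end did too. Cells with at most 10 such UMIs were 5.19% of stretched members against 5.36%, and 5.32% of not stretched members against 2.22%. Cells with at least 100 such UMIs were 0 of 135 stretched members, which allows up to 2.22%, against 6.09%, and 9.70% of not stretched members against 14.6%. Antigen presentation genes had medians of -0.42 (3 of 12 lower) and -0.30 (1 of 12 lower). Under equal phase weights the medians of the interferon-stimulated and antigen presentation lists were -0.44 and -0.39 with stretch, and -0.019 and -0.26 without stretch, where no gene of either list was then lower past 1.5-fold.

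Hypoxia genes had medians of -0.19 (1 higher, 2 lower of 17) and -0.31 (3 lower of 19). NDRG1, a stress gene induced in low oxygen, was at 75.9 against 128 CPM with stretch and at 69.1 against 123 CPM without, and ALDOC, an aldolase, was at 29.2 against 46.5 CPM and at 35.7 against 58.1 CPM. Immediate early genes had medians of -0.28 (2 of 24 lower) and -0.18 (1 of 24 lower), with JUNB, an AP-1 subunit, at 81.1 against 134 CPM with stretch and at 157 against 209 CPM without. Among single genes, SAT1 (chromosome X, 23783173 to 23786226), the enzyme that acetylates polyamines for export, was at 719 against 1182 CPM with stretch, 1.64-fold lower, and at 1047 against 2075 CPM without stretch, 1.98-fold lower. GDF15, a stress-secreted cytokine, was at 65.1 against 101 CPM and at 67.2 against 105 CPM. SOCS3, the feedback inhibitor of JAK-STAT signalling, was at 7.13 against 13.3 CPM and at 9.81 against 18.3 CPM. All of these were lower in members in both libraries.

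Genes with the highest ratios, APOA1, FN1, RBP4 and RBP2 among them, were detected in a minority of members. APOA1 (chromosome 11, 116835751 to 116837950), the main apolipoprotein of HDL, was at 269 against 96.7 CPM with stretch (2.78-fold, 2.61 to 2.95) and at 292 against 93.7 CPM without (3.12-fold, 3.01 to 3.23). FN1 (chromosome 2, 215360440 to 215436172), fibronectin, was at 109 against 34.3 CPM (3.16-fold, 2.87 to 3.48) and at 110 against 30.4 CPM (3.61-fold, 3.40 to 3.83). RBP4, the plasma retinol carrier, was at 26.2 against 3.99 CPM and at 17.9 against 4.35 CPM. With stretch FN1 was detected in 22 of 135 members, 1 of which held 32.3% of its UMIs, and RBP4 in 11, 1 of which held 35.5%. Without stretch FN1 was detected in 119 of 526 members, with at most 10.4% of its UMIs in 1 member, and RBP4 in 32, with at most 13.2%. RBP2, the intestinal retinol carrier, was at 12.5 against 2.34 CPM in 11 stretched members, 1 of them with 58.6% of the UMIs, and at 14.1 against 1.88 CPM without stretch.

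Cells with at least 5 UMIs of APOA1, APOA2, APOC3 and FABP1 at 8000 UMIs are called carriers here. They were 14 of 135 stretched members, 10.4% (5.79 to 16.8), against 162 comparison cells, 1.90% (1.62 to 2.21). Without stretch they were 41 of 526 members, 7.79% (5.65 to 10.4), against 126, 1.83% (1.52 to 2.17). No carrier was found among the 1241 bottom-channel cells with at least 30000 UMIs, which allows up to 0.242%. At least 1 UMI of the 4 genes was found in 17.8% of stretched and 13.5% of not stretched members, against 8.98% and 10.5% of comparison cells, and in 0.806% of those bottom cells. In members that were no carriers the 4 genes averaged 0.0826 UMIs with stretch and 0.0845 without, and in such comparison cells 0.0803 and 0.0988. How much of that level is free RNA was not tested. The definition of carriers caps the 4 genes in all other cells, so the APOA1 ratio without carriers follows in part from it. Without carriers the log2 ratio of APOA1 was -0.49 with stretch and 0.062 without, and that of RBP4 -0.27 and -0.40. For FN1 it was -0.28 with stretch but 1.21 without stretch, and GPC3 (-0.27 and 1.28), BICC1 (0.039 and 1.124), QPRT (-0.15 and 1.10) and IGF2BP1 (-0.54 and 1.06) likewise stayed past 1.5-fold without stretch. The share of carriers was 1.90%, 4.35%, 9.30% and 33.3% over the UMI steps with stretch, the last 2 of 6 cells, and 1.83%, 3.64%, 7.93% and 6.38% without.

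RNA-rich carriers differed in makeup from other carriers. To describe them, 30 genes that were highest in carriers and 30 that were highest in other cells, each of at least 50 CPM on its own side, were taken from the 8000 to 15000 UMI cells. Those of the other cells included AKAP12, a kinase scaffold, at 209 CPM in stretched comparison carriers against 1285 CPM in the rest. Both gene sets were chosen in the comparison cells. Few non-carrier and many carrier program UMIs in comparison carriers thus follow in part from that choice. Among comparison carriers the median was 3.5 UMIs of the non-carrier genes with stretch and 4 without, out of 8000. Among RNA-rich carriers it was 39 with stretch and 26 without, and among other members 80 and 78. At least 10 such UMIs were found in 11 of 14 stretched RNA-rich carriers, 78.6% (49.2 to 95.3), against 47 of 162 comparison carriers, 29.01% (22.2 to 36.7). Without stretch it was 25 of 41, 61.0% (44.5 to 75.8), against 29 of 126, 23.0% (15.99 to 31.4). Carriers with at least 10 non-carrier UMIs thus made up 8.15% of stretched members against 0.552%, and 4.75% of not stretched members against 0.420%. Carrier program UMIs had medians of 37 and 59 in RNA-rich carriers against 88 and 74.5 in comparison carriers. The limit of 10 UMIs was set after the values had been seen, and whether a droplet held 1 cell or more was not tested.

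**Figure D4:**
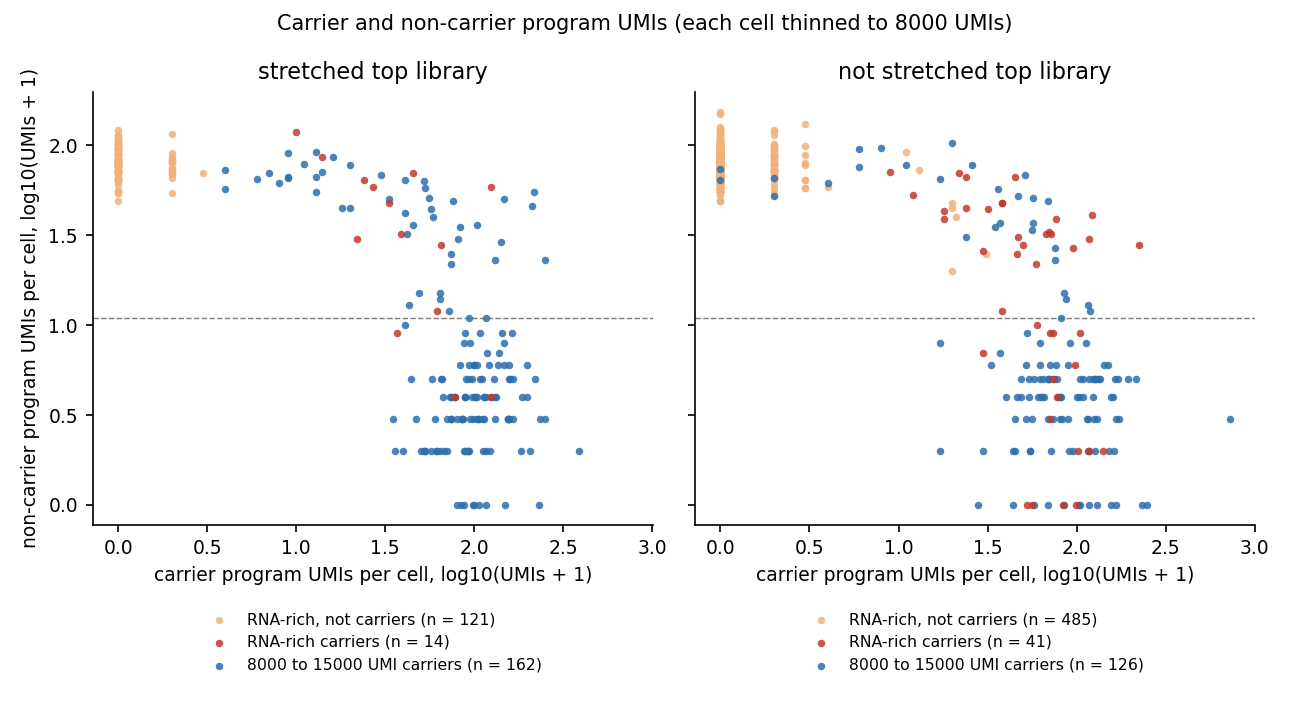
Non-carrier program UMIs against carrier program UMIs per cell, each thinned to 8000 UMIs and plotted as log10(UMIs + 1), in RNA-rich carriers (red), 8000 to 15000 UMI carriers (blue) and other RNA-rich cells (tan), with the dashed line at 10 UMIs. Of the RNA-rich carriers, 11 of 14 stretched and 25 of 41 not stretched lie on or above the line.

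Doublet scores moved with the UMI total. Among members, 45 stretched cells, 33.3%, were in the highest 10% of Scrublet scores against 9.64% of comparison cells, and 201 not stretched cells, 38.2%, against 7.51%. Scrublet itself called 1 stretched top cell, no not stretched top cell and 2 bottom cells doublets and so did not work as a caller here, and its calls removed no cell. The part of multiplets in the members' values was not tested.

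With carriers left out and phases weighted equally, 14 of 177 higher genes stayed past 1.5-fold with stretch and 10 of 205 without. Of the lower genes, 32 of 62 and 10 of 76 did. Without carriers, 118 genes were higher (1.34%) and 60 lower (0.679%) with stretch, and 175 (1.9%) and 74 (0.804%) without. With the called phases given equal weight in every group, 99 were higher (1.11%) and 67 lower (0.752%) with stretch, and 71 (0.765%) and 10 (0.108%) without. Of the 107 genes higher in both libraries, 63 were also higher in both without carriers, 31 with equal phase weights, and 3 with both changes: HIST1H4C, LYAR and GPATCH4, named after their values were seen. HIST1H4C had log2 ratios of 0.94 with stretch and 0.97 without in that setting, LYAR 0.74 and 0.62, and GPATCH4, a nucleolar protein, 0.71 and 0.59. Of the 19 lower in both, 15, 3 and 4 were also lower in both. With both changes these were MT-CYB (-0.68 and -0.58), MT-ATP8 (-0.93 and -0.86), SOCS3 (-0.79 and -0.70) and the Notch ligand JAG1 (-0.91 and -0.59), named after their values were seen. Over all genes, 68 were higher (0.771%) and 94 lower (1.07%) with stretch in that setting, and 14 (0.153%) and 14 (0.153%) without. Phase weights in the stretched library rest on only 14 G1-called members. The G2/M list itself defines the phases, so its medians of 0.10 and 0.03 there follow in part from the weights.

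**Figure D5:**
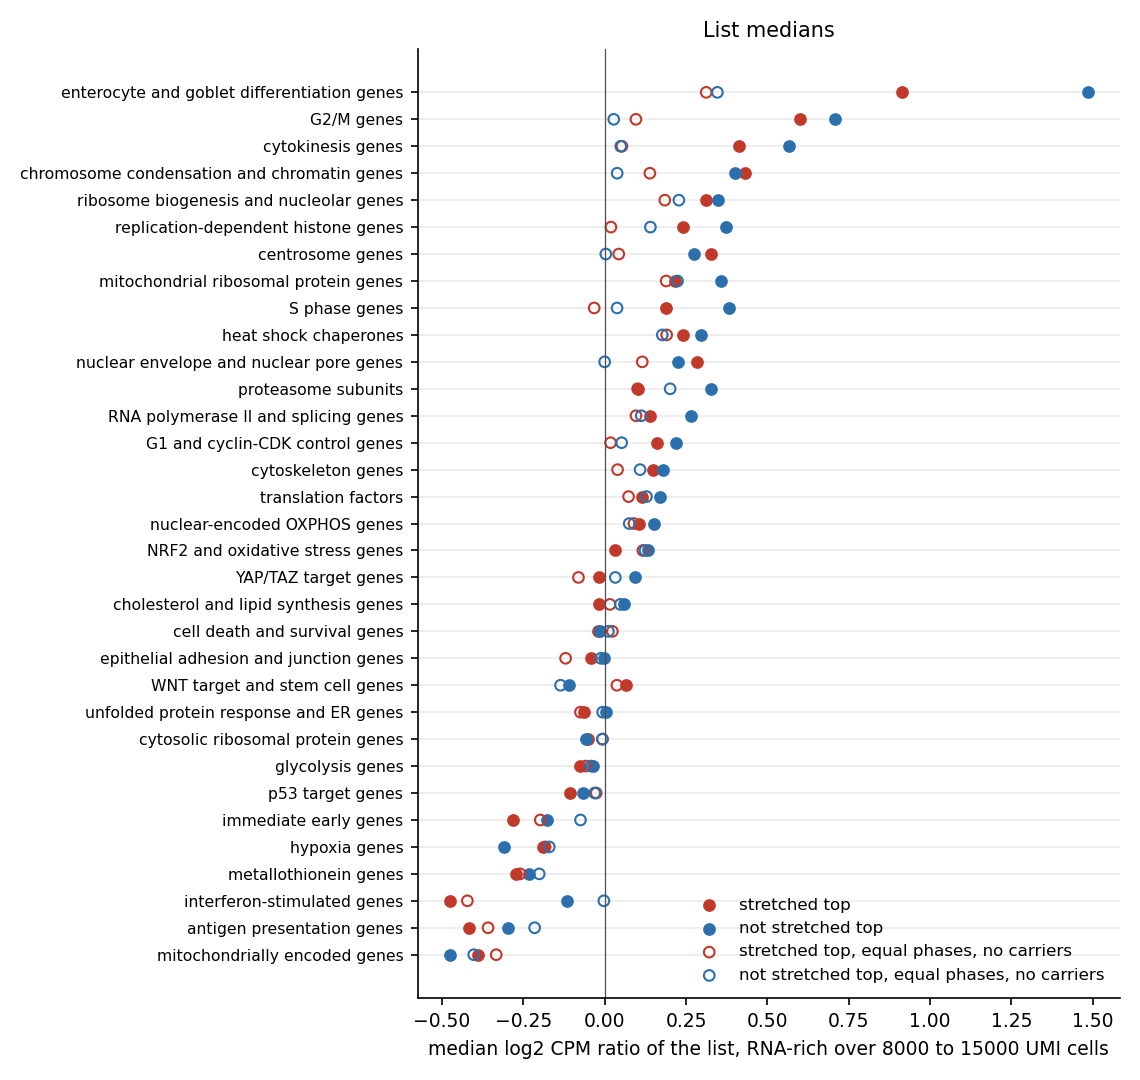
Median log2 CPM ratio of each gene list, RNA-rich over 8000 to 15000 UMI cells, as measured (filled) and with equal phase weights and no carriers (open), in the 2 top libraries. Most cell cycle lists lie near 0 in the open markers, with chromosome genes at 0.14 with stretch. Nucleolar genes stay at 0.18 and 0.23, and mitochondrial ribosomal protein genes at 0.19 and 0.22. Heat shock chaperones stay at 0.19 and 0.18, and enterocyte and goblet differentiation genes at 0.31 and 0.35. Mitochondrially encoded genes stay at -0.33 and -0.40.

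When G2/M-called members were set against G2/M-called comparison cells, the G2/M list had medians of -0.12 with stretch and -0.18 without. Here 200 genes were higher (2.25%) and 84 lower (0.944%) with stretch, from 85 members, and 51 (0.554%) and 27 (0.293%) without, from 298.

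Stretched and not stretched members were compared with each other, as the study compared the conditions. Of 9168 genes, 40 were higher in stretched members (0.436%) and 279 lower (3.04%), with a median of all genes of -0.10. TMM scaling moved that median to 0.00 and the split to 81 higher and 127 lower. G2/M genes had a median of 0.00 with none of 54 past 1.5-fold, and no S-phase, cytokinesis, chromosome or centrosome gene was past it either. Interferon-stimulated genes had a median of -0.82, with 14 of 22 lower and none higher, and antigen presentation genes -0.50 with 3 of 12 lower. The summed interferon-stimulated level was 4226 against 7260 CPM in members and 6011 against 8048 CPM in the comparison cells. For antigen presentation genes it was 1746 against 2426 CPM in members and 2447 against 3195 CPM in the comparison cells. These lower levels with stretch were thus not limited to RNA-rich cells. BST2 was at 35.7 CPM in stretched members against 122 CPM in not stretched members, 3.41-fold lower (2.91 to 4.02), and was found in 61 of 135 against 371 of 526 members. CHAC1, which degrades glutathione in the unfolded protein response, was at 2.81 against 11.2 CPM, in 13 against 141 members. IFITM1 was at 5.19 against 19.0 CPM. The comparison cells differed in the same direction, with BST2 at 72.8 against 199 CPM. CHAC1 was there at 5.15 against 7.44 CPM and IFITM1 at 16.5 against 28.6 CPM. The most extreme ratios came from single cells. APOA4 was at 0.432 against 15.1 CPM, with 93.8% of the not stretched UMIs in 1 member, and the 3 genes furthest up, NWD1 (14.3 against 0.944 CPM), PLA2G2A (22.3 against 5.61 CPM) and KRT13 (10.6 against 2.88 CPM), had 84.8%, 87.4% and 83.7% of their stretched UMIs in 1 member. VIM, the mesenchymal intermediate filament, was at 13.2 against 4.72 CPM, with 32.8% in 1 member. Equal phase weights gave 503 genes past 1.5-fold in place of 319, with 14 stretched G1-called members carrying a fixed share of the weight.

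RNA-rich cells of the top and bottom channels were set side by side at 30000 to 45000 UMIs, 129 stretched and 479 not stretched members against 406 bottom cells. In the stretched top 1209 of 8938 genes were higher than in the bottom cells (13.5%) and 524 lower (5.86%), and in the not stretched top 1745 of 9212 (18.9%) and 367 (3.98%). Interferon-stimulated genes had medians of 2.09 (14 of 18 higher) and 2.68 (20 of 22 higher), and mitochondrially encoded genes 0.66 and 0.63. At 8000 to 15000 UMIs, with 105 bottom cells, mean interferon-stimulated UMIs per thinned cell were also higher in the top, 48.3 and 64.7 against 11.8. Mitochondrially encoded UMIs went the other way there, 833 and 829 against 912. G2/M genes had medians of 0.29 (16 of 54 higher) and 0.24 (8 of 54 higher). Both comparisons share the bottom cells, and the median of all genes was 0.09 with stretch and 0.20 without.

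Among the members themselves, APOA1 varied most for its level, with a variance to mean ratio of 48.6 at 8000 UMIs per cell with stretch and 52.5 without, from UMIs in 21 of 135 and 60 of 526 members. The same ratio was 67.4 and 94.0 in the comparison cells. APOA2 followed with 23.1 and 27.7, and FN1 had 16.5 against 27.7 in comparison cells with stretch and 21.6 against 20.1 without. TTR, transthyretin, had 19.2 and 11.7, and APOE had 10.5 and 14.7, from UMIs in 16 of 135 and 57 of 526 members. The rest of the 10 genes were mitochondrial or ferritin transcripts found in every member. MT-CO2, of cytochrome oxidase, had 18.7 against 33.6 with stretch and 20.002 against 34.7 without, and FTH1, the ferritin heavy chain, 10.9 against 20.9 and 12.7 against 22.6. The ratio was smaller in members than in comparison cells in both libraries for these 10 genes except FN1 without stretch and MT-ATP6 with stretch (14.9 against 13.2).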

How the data were processed

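The deposited matrices hold the authors' UMI counts of each gene in each barcode, from Cell Ranger 7.0.0 per the file headers and on hg38 per the submitters' processing notes. Each lists 19912 features, and all columns were used. Per the labels' protocols, capture aimed at 10000 droplets, with 12 PCR cycles. Cells were kept with at least 1000 UMIs, 500 genes and at most 20% mitochondrial UMIs. UMIs were summed over the cells of a group and scaled to CPM (135 members with 4625426 UMIs against 93312570, and 526 with 19065001 against 77267385). Ratios are log2 after adding 1 CPM, and folds carry exact conditional binomial 95% intervals. No test was made, as each condition was 1 library and cells are not replicates. Phases were called with scanpy 1.11.5. Equal phase weights average the pooled CPM of the called phases. Positions and shared 3′ ends came from GENCODE release 29. Ratios were checked on simulated counts. Named genes were the 10 highest and 10 lowest weaker ratios of the libraries, up to 4 members a list, the 5 highest and 5 lowest ratios between conditions, and the 10 most variable genes, and some genes these rules name are not reported here. The members, the 34 gene lists and these rules were chosen with earlier results of these data known. None of the 21 listed nuclear-retained long noncoding RNAs was among the features. TMM used R 4.3.3 and edgeR 4.0.16. Other steps used Python 3.11.15, pandas 2.3.3, scipy 1.17.1, numpy 2.4.6 and matplotlib 3.10.9.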

Additional observations from a re-analysis of the deposited data

How the results depend on the processing

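No paired analysis was possible because each condition was 1 library, so leaving out a replicate was not possible either. Counts of genes past 1.5-fold are given with stretch, without stretch and between conditions, against 239, 281 and 319 as reported. They were 41, 42 and 28 past 2-fold, 815, 636 and 1068 with a minimum of 1 CPM, and 73, 107 and 50 with a minimum of 50 CPM. With 5 CPM added they were 138 with stretch and 130 between conditions, and between conditions 208 with TMM and 205 with median of ratios scaling. With members from 25000 UMIs they were 78 with stretch and 161 between conditions. From 40000 UMIs, with 12 stretched members, they were 2120, 476 and 1986. Against 15000 to 20000 UMI cells they were 96 and 38, against 5000 to 10000 UMI cells 876 and 1179, and at up to 10% mitochondrial UMIs 121 and 112. Without the highest 10% of Scrublet scores they were 511 without stretch and 516 between conditions. Equal phase weights gave 81 without stretch and 503 between conditions, and with carriers also left out 28 without stretch. G2/M-called cells alone gave 78 without stretch.

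The share of RNA-rich cells was 2.40% and 6.91% from 25000 UMIs, 0.0596% and 0.599% from 40000 UMIs, and 1.22% and 5.00% of the cells at up to 10% mitochondrial UMIs. The G2/M share of members from 40000 UMIs was 83.3% with stretch and 67.0% without. Under the other alternatives run the G2/M share moved by less than its interval.

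Directions changed for the following log2 ratios, and apart from what leaving out cells removes by construction the cause was not tested. In G2/M-called cells the median of the G2/M genes was -0.12 with stretch and -0.18 without, NAALADL2 was at 0.084 and 0.32, PRC1 at -0.040 and -0.11, MKI67 at -0.019 with stretch, and RAD51AP1 at -0.12, KIF23 at -0.14 and HMGB2 at -0.32 without. In the same cells the medians of cytokinesis genes were -0.048 with stretch and -0.13 without, and of ribosomal protein genes 0.021 and 0.056. With stretch those of p53 targets (0.020), hypoxia genes (0.043) and proteasome subunits (-0.011) turned too, and without stretch those of chromosome (-0.073), centrosome (-0.069), nuclear envelope (-0.078) and immediate early genes (0.0075). At up to 10% mitochondrial UMIs the stretched medians of S-phase genes (-0.042), proteasome subunits (-0.015) and p53 targets (0.015) turned, as did S-phase genes with equal phase weights (-0.014) and p53 targets from 40000 UMIs (0.13). HMGB2 without stretch was at -0.063 with equal phase weights. Between conditions APOA4 was at 0.97 from 40000 UMIs, and PLA2G2A at -0.75 up to 45000 UMIs, -0.76 without unthinned carriers and -1.20 without the highest Scrublet scores. Without carriers, the stretched ratios were -0.29 for RBP2, -0.27 for RBP4, -0.28 for FN1, -0.54 for IGF2BP1, -0.15 for QPRT, -0.49 for APOA1, -0.27 for GPC3, -0.19 for APOA2, -0.39 for TTR and -1.01 for APOE, and RBP4 was at -0.40 without stretch. With carriers counted on unthinned cells, they were -0.29 for RBP2, -0.27 for RBP4, -0.26 for FN1, -0.54 for IGF2BP1, -0.15 for QPRT, -0.63 for APOA1, -0.48 for GPC3, -0.42 for APOA2, -0.35 for TTR and -0.99 for APOE with stretch. Without stretch they were -0.14 for RBP2, -0.40 for RBP4, -0.42 for APOA1, -0.42 for APOA2, -0.063 for CFTR, -0.34 for TTR and -0.11 for APOE. With equal phase weights and no carriers, they were -0.28 for RBP2, -0.27 for RBP4, -0.69 for FN1, -0.79 for IGF2BP1, -0.19 for BICC1, -0.66 for APOA1, -0.018 for CFTR, -0.42 for GPC3 and -1.02 for APOE with stretch, and -0.44 for RBP4, -0.26 for APOA1, -0.036 for HMGB2 and -0.21 for TTR without. In all, 1841 single-gene ratios moved by less than their counting interval, 1188 by more in the same direction and 54 changed direction.

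Over 22 alternatives the median of the mitochondrially encoded genes ran between -0.55 and -0.14 with stretch and -0.69 and -0.19 without, that of the nucleolar genes between 0.11 and 0.53 and 0.17 and 0.57, and that of the interferon-stimulated genes between -0.57 and -0.22 and -0.20 and -0.0026. Depth limits the stretched library most: a UMI count of 0 allows up to 0.649 CPM in its members and 0.157 CPM in not stretched members. The alternatives that leave out carriers of the thinned count (alone or with equal phase weights), shared barcodes, phases other than G2/M or the mitochondrial maximum of the comparison cells, 5 in all, were added after the data were seen.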
